A study of Mus musculus with 22 samples.

Results

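The tumor necrosis factor (TNF) superfamily was followed in the mouse hippocampus contralateral to an epileptogenic kainate injection. Its members were taken by symbol: the genes named Tnf, Tnfsf or Tnfrsf with a number that are annotated as protein-coding. This gave 32 genes of the 53379 rows of the count table, of which 12 encode ligands and 20 receptors. One further match, Tnfsf13os, is an antisense transcript and was left out. All 32 passed the filter on low counts and were tested.

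Adult male C57/BL6N mice received kainate above the right hippocampus, or 0.9% NaCl as sham, and the left hippocampi were taken 24 h later. The kainate mice used were those that developed convulsive seizures. Each treatment had 8 mice, pooled into 3 samples that did not all hold the same number of mice. The paper does not say which replicate is the larger pool. Pooled nuclei were separated by the neuronal antigen NeuN into a NeuN+ fraction, called neurons, and a NeuN– fraction, called glia. NeuN– is defined by what it lacks, so it holds astrocytes, oligodendrocytes and their precursors, microglia and vascular cells together. The groups were kainate neurons (n = 3), sham neurons (n = 3), kainate glia (n = 3) and sham glia (n = 2, replicates 1 and 3). Each library is a pool of animals, and fewer cells of a type cannot be told apart from less RNA per cell.

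Ligands of this family are mostly membrane-anchored trimers, and some are cut off by proteases to act as soluble cytokines. Their receptors signal through adaptors of the TRAF family to NF-kappaB and stress kinases, and those with a death domain can instead engage caspases. In brain, TNF from microglia is known to change glutamate receptor trafficking and synaptic strength. Tnfrsf12a encodes Fn14, the small receptor of the ligand TWEAK (gene Tnfsf12), which is known as a gene induced by growth factors and injury.

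The 11 libraries held 12058875 to 45428465 counts. Levels are given as normalized CPM, the counts scaled to a common library size by the TMM method. The neuronal marker Rbfox3, which encodes NeuN, reached 171 to 278 CPM in neurons and 23.8 to 49.2 CPM in glia. All 6 neuronal markers were called higher in neurons, and all markers of astrocytes (6), microglia (6), oligodendrocytes (5) and their precursors (4) were called lower, so the fractions matched their names. The 4 libraries numbered 1 stood apart: 69.6% to 78.6% of the genes had a count in them, against 85.6% to 93.9% in the others. The RNA input was 1 ng with 10 PCR cycles, except for a pair of low-input libraries, kainate glia replicate 2 and sham glia replicate 1, with about 0.05 ng and 15 cycles.

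A gene was called where edgeR's quasi-likelihood test gave a false discovery rate (FDR, the adjusted p) under 0.25. Kainate and sham libraries with the same replicate number deviated together, so each comparison was also fitted with that number as a block. In glia the block leaves 2 pairs, since kainate glia replicate 2 has no sham partner. The fit with the block has 3 residual degrees of freedom. For the difference of the kainate effects the block is set within each fraction. The 2 fractions of a pool therefore enter that test as independent libraries. For neurons against glia the block is the pool. Calls that rest on the block are named as such.

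Tnfrsf12a and Tnf showed the largest kainate differences of the family in glia, and the bases just before their RefSeq transcription start are shown here for that reason. They are 250 bases on build GRCm38.p6, read 5′ to 3′ on the gene's minus strand, chr17:23677450-23677699 for Tnfrsf12a and chr17:35202008-35202257 for Tnf. GENCODE starts Tnfrsf12a further upstream, so the last 19 bases of its window lie within the GENCODE gene, and none of the Tnf window does. Capitals mark GC boxes (GGGCGG, or CCGCCC on the other strand) and the TATA box (TATAAA on the coding strand).
Tnfrsf12a: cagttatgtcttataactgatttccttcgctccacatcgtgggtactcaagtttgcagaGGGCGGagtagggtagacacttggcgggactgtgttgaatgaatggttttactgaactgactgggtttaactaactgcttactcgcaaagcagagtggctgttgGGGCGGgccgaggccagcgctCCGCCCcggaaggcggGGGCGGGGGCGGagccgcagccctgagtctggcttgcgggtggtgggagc
Tnf: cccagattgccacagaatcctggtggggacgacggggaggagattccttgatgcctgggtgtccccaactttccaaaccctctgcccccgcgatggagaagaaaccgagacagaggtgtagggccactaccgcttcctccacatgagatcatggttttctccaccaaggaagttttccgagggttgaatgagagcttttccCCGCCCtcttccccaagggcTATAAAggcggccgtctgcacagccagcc
The Tnfrsf12a window held 5 GC boxes and no TATA box, and the Tnf window held 1 of each. Of 32851 promoter windows of that length, 32.7% held a GC box and 7.59% a TATA box. Promoter windows were found for 25 of the 32 members. The AP-1 motif TGANTCA (6.75% of all windows), the CRE TGACGTCA (1.55%), the NF-kappaB consensus (7.25%) and the CArG box (1.47%), each searched on both strands, matched neither window. Among the other members, AP-1 matched at Tnfrsf8, Tnfrsf9, Tnfsf13, Tnfsf13b and Tnfsf14, NF-kappaB at Tnfrsf25, Tnfrsf8 and Tnfrsf9, and CArG at Tnfrsf17. A match is a description of letters and says nothing of use in these cells.

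The first question was which members differed between kainate and sham mice. In glia, 1 of 32 members was called, Tnfrsf12a, which rose. Of all genes tested, 0.0933% were called higher in glia and 0.157% in neurons. An unadjusted p under 0.05 was found for 4 members in glia, all higher (Tnf, Tnfsf9, Tnfrsf11b and Tnfrsf12a), and for 551 of all 40714 genes in that direction. In neurons no member was called without the block, where 2 members, Tnfrsf12a and Tnfrsf11b, and 594 of all genes were higher at an unadjusted p under 0.05. DESeq2 called 1 member higher in neurons, Tnfrsf12a, and 292 of all genes. With the block, 5 members were called higher and 1 lower in glia, where 2.93% and 2.86% of all genes were called. In neurons 4 were called higher and 1 lower with it, where 3.19% and 1.90% of all genes were called. The median log2 fold change of the members was 0.27 in glia and -0.19 in neurons, and over all genes it was 0.02 and -0.01.

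Tnfrsf12a (chr17:23675445-23677468, minus strand) reached 222, 73.3 and 66.5 CPM in kainate glia replicates 1 to 3. In sham glia it stood at 12.8 CPM in replicate 1 and 3.82 CPM in replicate 3. Every kainate glia library was above both sham libraries, and replicate 1 was the highest of each group. Compared by number, the kainate level was 17.4 times the sham level in both pairs. The log2 fold change was 3.86 ± 0.73 (SE, FDR = 0.142), and 4.12 ± 0.28 with the block (FDR = 4.94e-16). The call without the block was lost when any 1 of 6 libraries was left out: kainate glia 1 or 2, sham glia 1, kainate neurons 2, or sham neurons 2 or 3, with FDR from 0.260 to 0.407. The value itself was 2.94 without kainate glia 1, 3.23 without sham glia 3 and 5.01 without sham glia 1. The call was also lost without both low-input libraries (5.26, FDR = 0.615) and in a fit of glia alone (FDR = 1.00). With the block, leaving out both low-input libraries or the 4 libraries numbered 1 left glia with 1 pair, replicate 3. No call is read from those fits, and the kainate level in that pair was 17.4 times the sham level.

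In neurons Tnfrsf12a was also higher with kainate, at a lower level than in kainate glia. Its levels were 18.4, 10.1 and 17.9 CPM in kainate neurons and 5.51, 2.41 and 3.03 CPM in sham neurons, so the groups did not overlap. The kainate level was 3.33, 4.19 and 5.92 times that of the same-numbered sham library. The log2 fold change of 2.09 ± 0.58 was not called (FDR = 0.597), whereas the block gave 2.13 ± 0.22 (FDR = 4.32e-10). DESeq2 and a fit of neurons alone also called it. The kainate effect was smaller in neurons than in glia by 1.99 ± 0.34 on the log2 scale with the block (FDR = 2.64e-04). Without the block this difference, -1.77 ± 0.84, was not called, and it moved to -0.87 without kainate glia 1, -1.13 without sham glia 3 and -2.91 without sham glia 1. Its ligand gene Tnfsf12, encoding TWEAK, was low everywhere, at 0.67 to 5.56 CPM in glia and up to 0.74 CPM in neurons. One neuron library, kainate replicate 3, had 0 counts of Tnfsf12, which allows up to 0.135 CPM. The kainate log2 fold change of Tnfsf12 was -0.93 ± 1.09 in glia and -0.18 ± 1.06 in neurons, neither called. Of the exon length of Tnfsf12, 48.3% is shared with the readthrough gene Tnfsfm13, so its counts are uncertain.

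**Figure D1:**
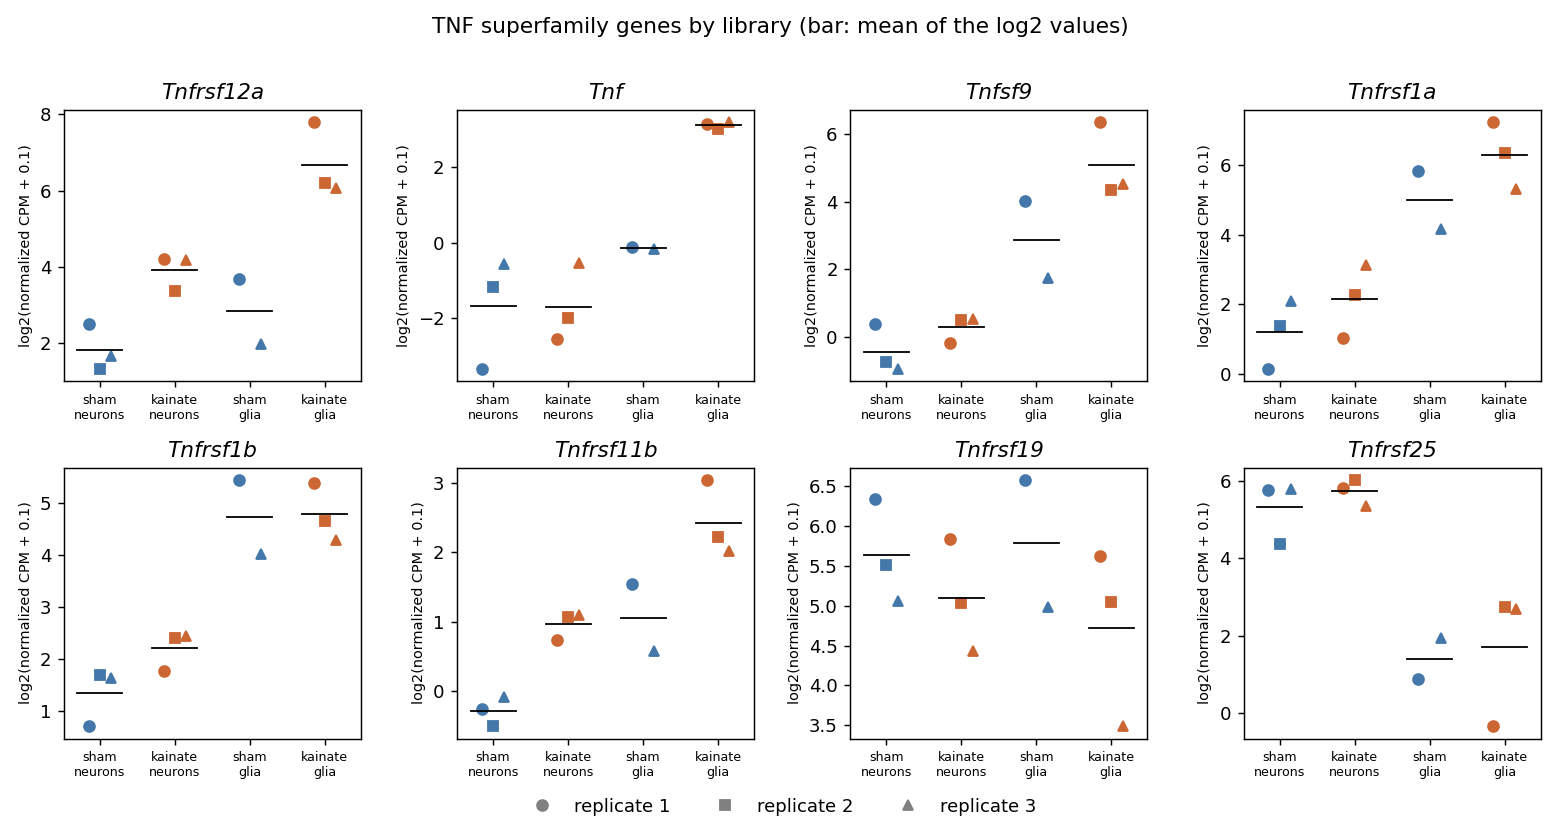
Levels of 8 members in each library, as log2 of normalized CPM plus a pseudocount of 0.1 (vertical axis, scale differs by panel), by group (horizontal axis). Blue marks sham and orange kainate, the shape gives the replicate number, and the bar is the mean of the log2 values. Tnfrsf12a lies higher in all kainate than in all sham libraries of either fraction, and Tnf does so in glia.

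Tnf encodes the founding cytokine of the family. Its level in kainate glia was 8.65, 7.87 and 8.94 CPM, from 138 to 318 counts per library. In sham glia it was 0.83 and 0.79 CPM, from 13 and 16 counts. The groups did not overlap, and the kainate level was 10.4 and 11.3 times the sham level in the 2 pairs. The log2 fold change of 3.38 ± 1.00 was not called (FDR = 1.00), and the block gave 3.43 ± 0.53 (FDR = 7.47e-06). In neurons Tnf did not exceed 0.59 CPM in any library and was at 0 counts in sham neurons replicate 1, which allows up to 0.201 CPM. The kainate effect on Tnf in neurons was -0.26 ± 0.85 (not called), and its difference from that in glia was -3.77 ± 0.78 with the block (FDR = 0.0041) and -3.64 ± 1.28 without it (not called).

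The receptors of TNF are Tnfrsf1a, a broadly expressed death domain receptor, and Tnfrsf1b, which lacks a death domain and is typical of immune cells. Tnfrsf1a was at 150, 81.1 and 39.8 CPM in kainate glia and at 56.4 and 17.8 CPM in sham glia. The groups overlapped, but within the pairs the kainate level was 2.67 and 2.24 times the sham level. In neurons it was at 1.92, 4.72 and 8.65 CPM with kainate and at 1.01, 2.50 and 4.19 CPM in sham, which gave pair ratios of 1.91, 1.89 and 2.06. The log2 fold changes were 1.28 ± 0.74 in glia and 0.97 ± 0.66 in neurons, neither called. With the block they were 1.29 ± 0.25 (FDR = 4.54e-04) and 0.97 ± 0.24 (FDR = 0.0090). In glia the blocked FDR was 0.428 without the 4 libraries numbered 1. The glial value without the block was 0.58 without kainate glia 1, 0.67 without sham glia 3 and 2.37 without sham glia 1, and the neuronal one was 0.37 without kainate neurons 3, 0.62 without sham neurons 1 and 1.51 without sham neurons 3.

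Tnfrsf1b overlapped between the treatments in glia, at 42.0, 25.2 and 19.6 CPM with kainate and 43.6 and 16.2 CPM in sham. In neurons its groups did not overlap, at 3.34, 5.20 and 5.36 CPM with kainate and 1.54, 3.16 and 3.03 CPM in sham. The neuronal log2 fold change of 0.84 ± 0.46 was called only with the block, at 0.86 ± 0.26 (FDR = 0.0627), and not without the 4 libraries numbered 1 (FDR = 0.572). In glia it was -0.05 ± 0.50, with a difference between the fractions of 0.75 ± 0.39 with the block that was not called (FDR = 0.805).

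Tnfsf9 encodes 4-1BB ligand, a co-stimulator of T cells, and Tnfrsf9 its receptor. Tnfsf9 stood at 82.2, 20.4 and 22.8 CPM in kainate glia and at 16 and 3.22 CPM in sham glia, so the lowest kainate library was above the highest sham library. Within pairs it was 5.12 and 7.08 times higher with kainate. The log2 fold change of 2.12 ± 0.76 was not called, and the block gave 2.58 ± 0.34 (FDR = 2.56e-07). The value without the block was 1.01 without kainate glia 1, 1.37 without sham glia 3 and 3.72 without sham glia 1. In neurons Tnfsf9 stayed between 0.42 and 1.35 CPM, with a blocked log2 fold change of 0.93 ± 0.36 (FDR = 0.258). The effect was smaller in neurons by 1.65 ± 0.49 with the block (FDR = 0.123), and this was not called without both low-input libraries (FDR = 0.264) or without the 4 libraries numbered 1 (FDR = 1.00). Without the block this difference was -1.33 ± 1.02 (not called), and ran from -2.92 without sham glia 1 to -0.25 without kainate glia 1. Of the exon length of Tnfsf9, 14.9% lies opposite the transcript Gm11110. Tnfrsf9 ranged from 0.83 to 5.40 CPM in glia and from 3.84 to 9.80 CPM in neurons, with no call for kainate.

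Tnfrsf11b encodes osteoprotegerin, a secreted decoy receptor of RANKL (gene Tnfsf11) and TRAIL (gene Tnfsf10). It was low but separated the treatments in both fractions. Kainate glia had 8.15, 4.58 and 3.93 CPM and sham glia 2.81 and 1.39 CPM. Kainate neurons had 1.57, 1.99 and 2.03 CPM and sham neurons 0.74, 0.60 and 0.84 CPM. Pair ratios were 2.90 and 2.83 in glia and 2.12, 3.30 and 2.42 in neurons. The log2 fold changes, 1.40 ± 0.59 and 1.36 ± 0.53, were called only with the block, at 1.52 ± 0.47 (FDR = 0.0713) and 1.38 ± 0.42 (FDR = 0.0588). The glial call was lost without both low-input libraries (FDR = 0.590) and without the 4 libraries numbered 1 (FDR = 0.681). The glial value without the block was 0.91 without kainate glia 1, 2.02 without sham glia 1 and 2.14 without both low-input libraries. The RANKL gene Tnfsf11 was at 0.19 to 2.64 CPM in all libraries, its receptor RANK (Tnfrsf11a) at 13.2 to 26.2 CPM in glia and 3.26 to 6.04 CPM in neurons, and Tnfsf10 at 0.43 to 6.25 CPM. None of these 3 was called for kainate.

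Tnfrsf19, also called TROY, was the member called lower with the block in both fractions. Levels in glia were 49.4, 33.0 and 11.1 CPM with kainate and 95.8 and 31.7 CPM in sham. Levels in neurons were 56.9, 32.6 and 21.5 CPM with kainate and 80.7, 45.7 and 33.2 CPM in sham. The groups overlapped, while each kainate library was below its same-numbered sham library, at ratios of 0.52 and 0.35 in glia and 0.71, 0.71 and 0.65 in neurons. The log2 fold change in glia was -1.03 ± 0.63 (not called) and -1.23 ± 0.24 with the block (FDR = 6.56e-04). In neurons it was -0.52 ± 0.57 (not called) and -0.54 ± 0.19 with the block (FDR = 0.180), and the blocked FDR was 0.479 without the 4 libraries numbered 1. Without sham glia replicate 1, the glial value without the block was 0.0042, so its direction there rests on that library. The neuronal value without the block was -0.98 without kainate neurons 1, -0.25 without kainate neurons 3 and -0.09 without sham neurons 1.

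**Figure D2:**
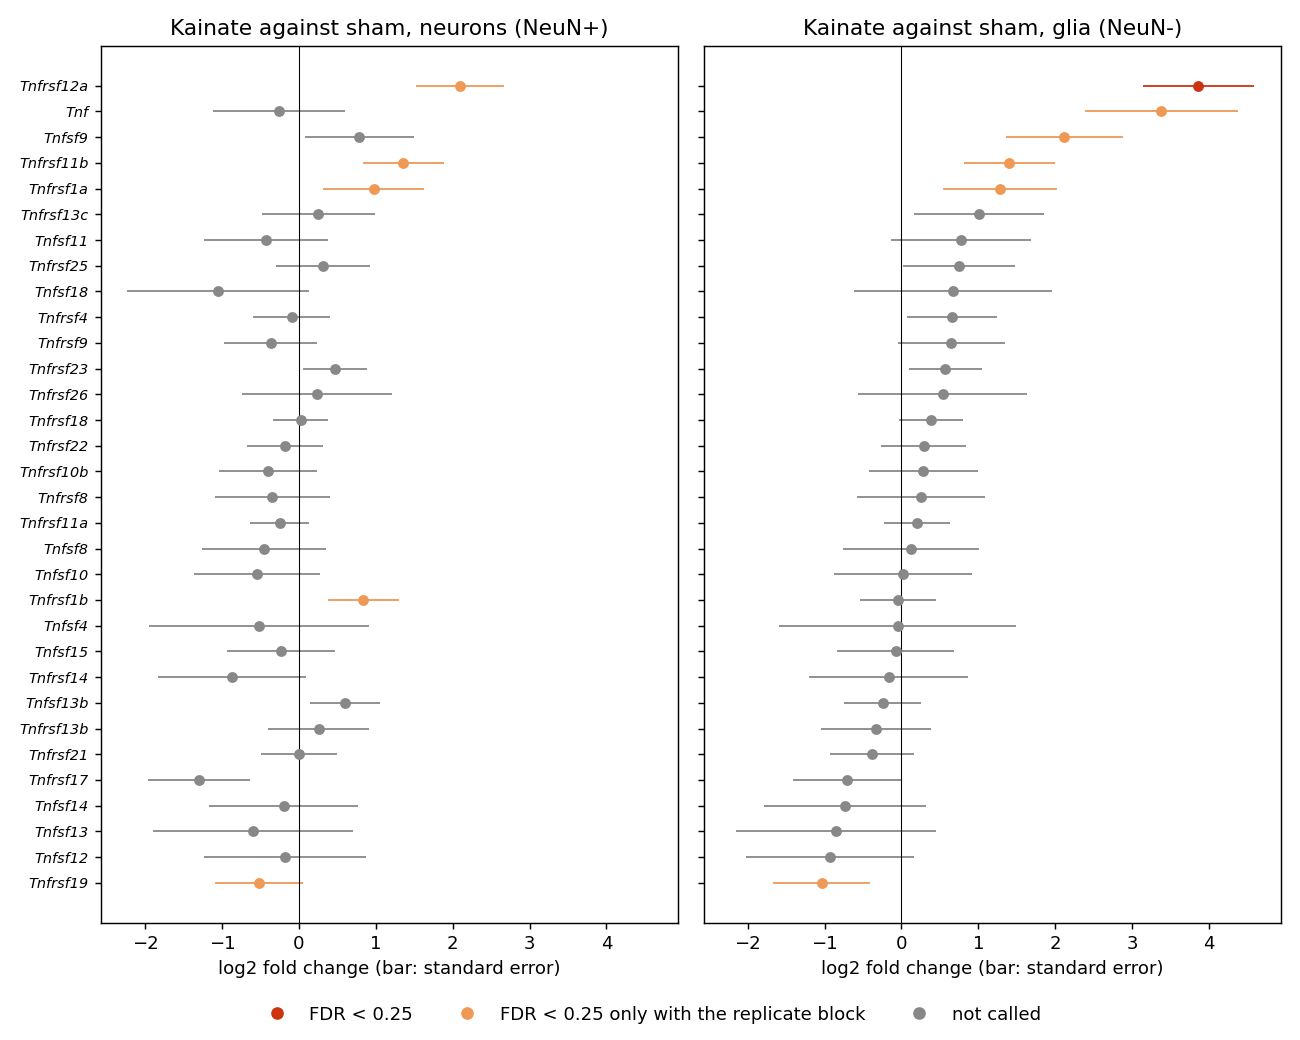
Kainate against sham log2 fold change (horizontal axis) of the 32 members (vertical axis, ordered by the value in glia) in neurons and in glia, from the fit without the block, with the standard error as bar. Red marks FDR below 0.25, orange the genes called with the replicate block but not without it and grey the rest. Tnfrsf12a has the largest value in both panels, while Tnf is high in glia at 3.38 and near 0 in neurons.

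Groups did not overlap, kainate being higher, for 7 members in glia (Tnf, Tnfsf9, Tnfrsf4, Tnfrsf11b, Tnfrsf12a, Tnfrsf18 and Tnfrsf23), where 4.70% of all genes did so. In neurons this held for 4 members (Tnfrsf1b, Tnfrsf11b, Tnfrsf12a and Tnfrsf23), where 4.26% of all genes did so. The reverse held for 1 member, Tnfrsf17, the receptor BCMA, in glia, where 3.52% of all genes did so. Tnfrsf23 encodes a decoy TRAIL receptor that is a close copy of Tnfrsf22, so reads may be split between them. Its values were 3.64 to 4.83 CPM in kainate and 2.17 to 3.37 CPM in sham glia, and the log2 fold change of 0.57 ± 0.47 was not called.

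In the test of the difference between the kainate effects, no member was called without the block, where 0.00246% of all genes were called in either direction, and 1 member, Tnf, and 188 of all genes had a lower effect in neurons at an unadjusted p under 0.05. DESeq2 called none either, with 1 member under 0.05. With the block, 3 members had a lower effect in neurons (Tnf, Tnfrsf12a and Tnfsf9), where 0.702% of all genes did. With the block and without both low-input libraries, or without the 4 libraries numbered 1, the glial side of this difference rests on 1 pair. Tnfsf9 was not called in those fits, and no call is read from them for Tnf and Tnfrsf12a.

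The second question was in which fraction each member was expressed, over both treatments. Ligands lay toward glia: of 12, 8 were called lower in neurons, and none was called higher by edgeR or DESeq2 or had an unadjusted p under 0.05 in that direction. Of 20 receptors, 4 were called higher in neurons and 9 lower. Together these are 4 higher and 17 lower, where 16.8% and 20.4% of all genes were called. With the pool as a block there were 5 higher and 22 lower, where 24.9% and 34.8% of all genes were called. The median log2 fold change was -1.56 for ligands and -0.75 for receptors, against -0.47 over all genes. The libraries of the fractions did not overlap for 3 members higher in neurons (8.92% of all genes) and 8 lower (6.31%).

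Tnfrsf25, also called DR3 and a death domain receptor, was the receptor with the largest difference toward neurons. It had 54.5, 20.8 and 55.9 CPM in sham neurons and 56.8, 65.4 and 40.7 CPM in kainate neurons, against 1.73 and 3.72 CPM in sham glia and 0.69, 6.55 and 6.41 CPM in kainate glia. No library of the fractions overlapped, and the log2 fold change was 3.78 ± 0.54 (FDR = 2.00e-04). Its ligand gene Tnfsf15, encoding TL1A, showed the opposite, at 2.17 to 5.23 CPM in glia and 0.27 to 1.78 CPM in neurons (-1.59 ± 0.52, FDR = 0.0504).

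Tnfrsf18 (GITR) and Tnfrsf4 (OX40), both known as T cell co-stimulatory receptors, were also higher in neurons without overlap. Tnfrsf18 was at 7.83 to 14.2 CPM in neurons and 4.46 to 6.72 CPM in glia (1.07 ± 0.28, FDR = 0.0150), and 27.2% of its exon length lies opposite the antisense transcript Gm16008, which these reads, made without strand marking, cannot separate. Tnfrsf4 was at 2.62 to 5.80 CPM in neurons and 1.09 to 2.33 CPM in glia (1.29 ± 0.39, FDR = 0.0360). Their ligand genes were near the floor. Tnfsf18 had at most 1.97 CPM and Tnfsf4 at most 2.00 CPM in any library. Tnfsf18 had 0 counts in neurons replicate 1 of both treatments, which allows up to 0.213 CPM with kainate and 0.201 CPM in sham. Tnfsf4 had 0 counts in glia replicate 1 of both, which allows up to 0.188 and 0.192 CPM.

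Tnfrsf21, or death receptor 6, a death domain receptor known from developing axons and oligodendrocytes, was the most abundant member in neurons. It ranged from 100 to 277 CPM there and from 58.3 to 175 CPM in glia. The log2 fold change of 0.76 ± 0.38 (FDR = 0.197) was called, and the call was lost without any 1 of 6 libraries (replicate 1 of either neuron group, kainate neurons 2, kainate glia 2 or 3, or sham glia 3), with FDR from 0.270 to 0.479. It was also lost with no filter on low counts (FDR = 0.282). With the pool as a block it was 0.83 ± 0.16 (FDR = 0.0023). Tnfrsf9 was called toward neurons with this block, at 1.08 ± 0.43 (FDR = 0.0798), but not in the fit without it on all libraries (FDR = 0.281), where leaving out sham glia 3 gave a call (FDR = 0.0339).

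Toward glia, the largest differences were those of Tnfsf9 (-4.50 ± 0.54, FDR = 5.54e-05), Tnfrsf1a (-3.98 ± 0.52, FDR = 9.61e-05), Tnf (-3.11 ± 0.63, FDR = 0.0027) and Tnfrsf1b (-3.08 ± 0.35, FDR = 4.42e-05). Tnfrsf12a was at -2.08 ± 0.42 (FDR = 0.0026) and Tnfrsf11a at -1.98 ± 0.29 (FDR = 2.17e-04). Without sham glia 1 the value of Tnfsf9 was -3.69. These values are over both treatments, and the kainate and sham pools were not alike for Tnf. Its level in neurons was 0.822%, 1.94% and 6.55% of that in glia in the kainate pools, and 73.1% in sham pool 3, at 0.58 against 0.79 CPM, while in sham pool 1 neurons had 0 counts. For Tnfrsf12a the share was 8.27% to 27.0% in the kainate pools and 43.1% to 79.4% in the sham pools. Libraries did not overlap for Tnf, Tnfsf9, Tnfsf13, Tnfsf13b, Tnfsf15, Tnfrsf1a, Tnfrsf1b and Tnfrsf11a.

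The B cell survival ligands APRIL (Tnfsf13) and BAFF (Tnfsf13b) were both called toward glia, at -2.82 ± 0.94 (FDR = 0.0558) and -1.10 ± 0.34 (FDR = 0.0366). The value of Tnfsf13 ran from -4.98 without kainate neurons 2 to -2.12 without sham glia 1, and with the block its call was lost without the 4 libraries numbered 1 (-1.28, FDR = 0.318). Tnfsf13b was at 6.04 to 8.78 CPM in glia and 1.28 to 4.55 CPM in neurons. Tnfsf13 was at 0.42 to 1.98 CPM in glia and had 0 counts in 3 of 6 neuron libraries, each allowing at most 0.213 CPM, and 60% of its exon length is shared with Tnfsfm13. Of their receptors, Tnfrsf13b (TACI, -1.81 ± 0.49) and Tnfrsf17 (BCMA, -1.51 ± 0.48) were called toward glia, and Tnfrsf13c (BAFF receptor, -0.01 ± 0.59) was not. Tnfrsf14, the herpesvirus entry mediator, was called toward glia (-2.25 ± 0.72, FDR = 0.0443; -1.52 without sham glia 3), while its ligand gene Tnfsf14 (LIGHT) was called with the block (-0.95 ± 0.48, FDR = 0.156) but not in the fit without it on all libraries (FDR = 0.346).

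The remaining calls toward glia were those of Tnfrsf11b (-1.55 ± 0.39), Tnfrsf22 (-1.06 ± 0.37), Tnfsf8 (CD30 ligand, -1.60 ± 0.60), Tnfsf10 (-1.18 ± 0.60) and Tnfsf12 (-2.44 ± 0.78, and -1.61 without sham glia 1). Tnfrsf10b (the TRAIL receptor), Tnfrsf26, Tnfsf18 and Tnfsf4 were called toward glia with the block but not in the fit without it on all libraries. Without the block, all 4 and Tnfsf14 were called toward glia when sham glia 1 was left out (FDR from 0.0832 to 0.177), and all but Tnfsf18 had a value above 0, not called, when sham glia 3 was left out. Tnfrsf8 (CD30), Tnfrsf19, Tnfrsf23 and Tnfsf11 were called in neither fit. The call of Tnfsf10 was lost without any 1 of 6 libraries, including replicate 1 of either neuron group, kainate neurons 2 and kainate glia 2 or 3 (FDR from 0.278 to 0.975), and with no filter on low counts (FDR = 0.281). In the fit without the block, the values of 5 low members, Tnfrsf10b, Tnfrsf26, Tnfsf4, Tnfsf10 and Tnfsf14, turned positive without sham glia replicate 3. That fit does not compare neurons with glia of the same pool. Within kainate pools 1 to 3 and sham pool 1, neurons were at 42.03% to 55.2% of glia for Tnfrsf26. For Tnfsf10 they were at 21.96% to 94.57%. Neurons were above glia for Tnfrsf10b in sham pool 1 (160%) and for Tnfsf14 in kainate pool 1 (302%). They were also above glia for Tnfsf4 in both pools numbered 1, where glia had 0 counts. Without sham glia replicate 3, Tnfrsf22 and Tnfsf8 were no longer called in the fit without the block.

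**Figure D3:**
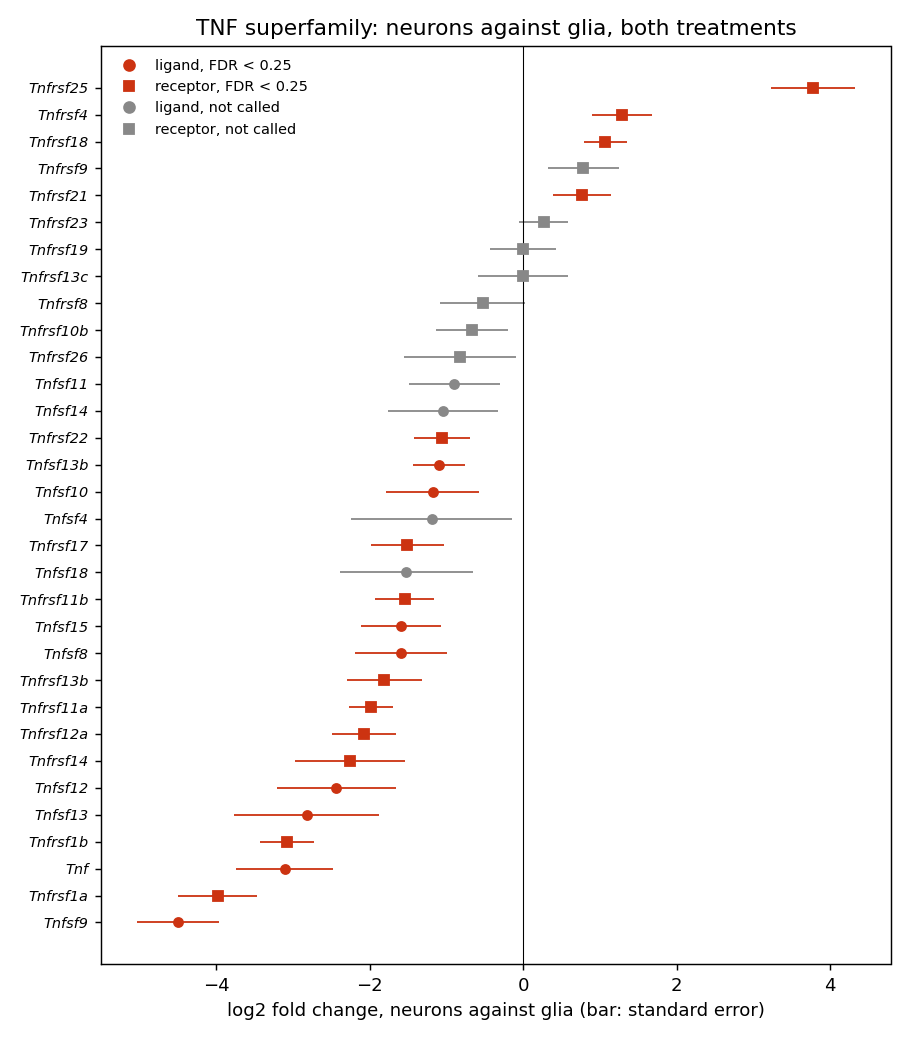
Neurons against glia log2 fold change over both treatments (horizontal axis) of the 32 members (vertical axis), with the standard error as bar, from the fit without the block. Circles are ligands, squares receptors, and red marks FDR below 0.25. All 12 ligands lie below 0, from -4.50 for Tnfsf9 to -0.90 for Tnfsf11, and the 4 members called above 0 are receptors.

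Levels between genes were compared per kilobase of exon. In sham neurons Tnfrsf21 ranked highest at 43.6 ± 18.5 CPM per kilobase (SD, n = 3), followed by Tnfrsf25 at 19.2 ± 8.73 and Tnfrsf19 at 11.2 ± 5.19. These neighbors did not all separate, since the lowest Tnfrsf25 library (9.13) was within the range of Tnfrsf19 (7.01 to 17.0). In sham glia the order was Tnfrsf21 at 29.3 ± 18.6 (n = 2), Tnfrsf1a at 14.3 ± 10.5 and Tnfrsf19 at 13.5 ± 9.57, with ranges that overlapped, and Tnfrsf12a came after 5 other members at 4.30 ± 3.28. In kainate glia Tnfrsf12a ranked highest at 62.4 ± 45.5 (n = 3), then Tnfrsf1a at 34.9 ± 21.6, Tnfsf9 at 32.4 ± 27.1 and Tnfrsf21 at 22.5 ± 8.51, of which only Tnfrsf21 (14.2 to 31.2) lay below every Tnfrsf12a library (34.4 to 115). In kainate neurons Tnfrsf12a came behind Tnfrsf21 and Tnfrsf25 at 8.00 ± 2.40, which overlapped with Tnfrsf19 at 7.81 ± 3.82. Most members were scarce: 22 of 32 were under 10 CPM in every library, 9 had a mean of at least 10 CPM in any group, and 6 had a library at 0 counts.

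**Figure D4:**
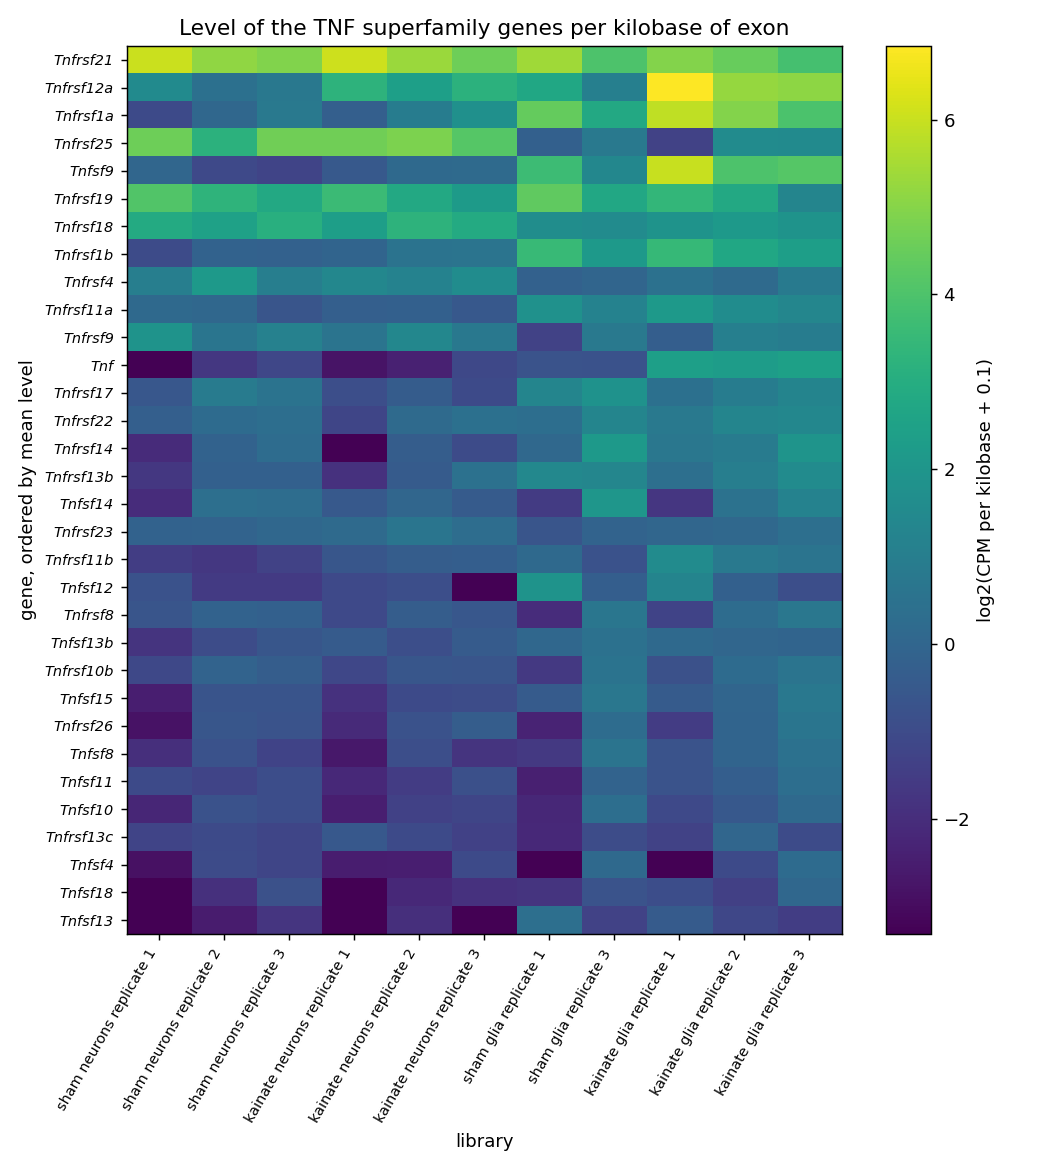
Level of each member (rows, ordered by mean) in each of the 11 libraries (columns), as log2 of CPM per kilobase of exon plus 0.1, on the color scale at the right. Tnfrsf21 is high throughout and Tnfrsf25 in the 6 neuron libraries, while Tnfrsf12a and Tnfsf9 reach their highest levels in the 3 kainate glia libraries. Tnfrsf1a is high there too, but sham glia replicate 1 exceeds kainate glia replicate 3.

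Markers of each fraction were also counted in the other. Summed neuronal markers were at 465 to 745 CPM in glia and at 2835 to 6646 CPM in neurons. In the kainate pools 1 to 3, Tnfrsf12a in neurons was 8.27%, 13.8% and 27.0% of its level in glia. The summed astrocyte markers in neurons were 8.07%, 21.7% and 65.6% of those in glia in the kainate pools, and 5.67% and 22.4% in the sham pools. The summed microglial markers were 3.75%, 6.23% and 11.2%, and 1.90% and 7.91%. Of the 6 astrocyte markers, 4 did not overlap between the fractions, while Slc1a2 and Gfap did. Slc1a2 weighed heavily in the astrocyte sum of neurons, at 184 to 227 CPM with kainate and 104 to 160 CPM in sham. It was at 110 to 648 CPM in kainate glia, so that sum is not a measure of astrocyte RNA alone. The astrocyte marker sum in neurons was 252 to 410 CPM with kainate and 170 to 234 CPM in sham, so it moved with the treatment in the same direction as Tnfrsf12a, Tnfrsf1a, Tnfrsf1b and Tnfrsf11b. Of its 6 markers, 4 were called higher and 2 lower in kainate neurons with the block, as were 1 microglial marker higher and 1 lower, 2 of 6 neuronal markers higher and 1 of 5 oligodendrocyte markers lower. Without the block none of these markers was called in neurons, 2 astrocyte markers and 1 microglial marker had an unadjusted p under 0.05, and DESeq2 called 1 astrocyte marker. The microglial sum in neurons was 67.4 to 73.2 CPM with kainate and 44.6 to 67.5 CPM in sham. The part of astrocyte and microglial RNA in these neuronal differences was not tested.

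In glia, marker lists also moved with the treatment. With the block, 3 of 5 oligodendrocyte markers, 4 of 4 precursor markers and 2 of 6 microglial markers were called lower with kainate, and 1 of 6 astrocyte markers, Gfap, was called higher and 3 lower. Of 6 neuronal markers 1 was called higher in kainate glia with the block. Without the block none of these lists had a call in glia, 1 astrocyte and 1 microglial marker had an unadjusted p under 0.05, and DESeq2 called 1 astrocyte and 1 microglial marker. The microglial marker P2ry12, named like Gfap after its values were seen, had a log2 fold change of -2.10 ± 0.24 with the block (FDR = 1.38e-08) and of -2.51 ± 0.65 without it (FDR = 0.788). Summed microglial markers were at 651 to 1877 CPM in kainate glia and 656 to 3561 CPM in sham glia, and those of precursors at 327 to 1574 and 866 to 2724 CPM. Blood leukocyte markers summed to 89.8 to 97.9 CPM with kainate and 84.2 to 97.6 CPM in sham glia, with 2 of 8 at 0 counts in a library. Endothelial and pericyte sums overlapped between the treatments too, at 19.0 to 31.4 against 17.3 to 33.3 CPM and 29.2 to 59.8 against 38.3 to 67.3 CPM. The part of these cell types in the glial differences was not tested.

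The wider pathway was followed by lists of genes. Of 32 genes that TNF is known to induce or that feed back on it, 4 were called higher in glia and 2 in neurons, with none lower, where 0.0933% and 0.157% of all genes were called higher. Socs3, a feedback inhibitor of cytokine signaling, rose from 10.3 to 10.7 CPM in sham glia to 375 to 650 CPM in kainate glia (5.50 ± 0.54, FDR = 0.0036), and from 3.06 to 3.22 CPM to 39.8 to 91.1 CPM in neurons (4.47 ± 0.43, FDR = 0.0014). Fos rose by 5.67 ± 0.80 in glia (FDR = 0.0763) and 3.09 ± 0.59 in neurons (FDR = 0.150). In glia Junb (3.78 ± 0.64, FDR = 0.105) and the chemokine gene Ccl2 (3.08 ± 0.55, FDR = 0.142) also rose. Fos and Junb are known to follow neuronal activity and many other stimuli besides TNF. With the block 14 of the 32 were called higher in glia and 11 in neurons, with none lower, where 2.93% and 3.19% of all genes were called higher. The kainate effect in neurons minus that in glia was called higher for 2 of the 32 and lower for 7 with the block, where 1.23% and 0.702% of all genes were, and for none without it, where 7 had an unadjusted p under 0.05 and DESeq2 called 1. The median of this list was 0.56 in glia and 0.46 in neurons.

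The other 5 lists had no call for kainate without the block, where 4 of their genes in neurons and 3 in glia had an unadjusted p under 0.05 and DESeq2 called 1 and 2. The calls given for these lists all rest on the block, under which 2.93% of all genes were called higher and 2.86% lower in glia, and 3.19% and 1.90% in neurons. Among 14 members of the superfamily under other symbols, the block called 2 higher in glia (Relt, 1.26 ± 0.27, and the neurotrophin receptor Ngfr, 1.64 ± 0.60), and in neurons 2 higher (the lymphotoxin beta receptor Ltbr, 1.13 ± 0.30, and Relt, 0.74 ± 0.22) and 1 lower (Eda, -0.84 ± 0.31). Of 26 adaptors and ubiquitin factors, 1 was called in glia with the block, Traf4, which was lower (-1.66 ± 0.26, FDR = 1.46e-05), and none was called in neurons, where 2 had an unadjusted p under 0.05 with the block. With the block, of 9 genes of the death arm, Cflar (1.20 ± 0.21), which encodes the caspase-8 inhibitor FLIP, and Casp8 (1.23 ± 0.42) were called higher in neurons and Ripk3 (1.35 ± 0.46) in glia. Casp8 was near the floor in neurons, at 0.71 to 1.31 CPM with kainate and 0.34 to 0.45 CPM in sham, against 5.80 to 17.4 CPM in glia. Ltbr was likewise at 0.47 to 3.74 CPM in neurons and 10.9 to 47.9 CPM in glia. Nfkb2 (0.76 ± 0.30) and Relb (0.77 ± 0.30) of the 4 noncanonical NF-kappaB genes were called higher in glia and none in neurons, where 1 of the 4 had an unadjusted p under 0.05. Of 6 shedding proteases and regulators, Furin (0.69 ± 0.23), Rhbdf1 (0.75 ± 0.23) and Rhbdf2 (1.45 ± 0.39) were called higher in glia, and Furin (0.88 ± 0.18), Timp3 (0.74 ± 0.20) and Rhbdf2 (0.91 ± 0.34) in neurons.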

How the data were processed

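Nuclear RNA was amplified with SMART-Seq v4, which does not mark strand. Per the paper's methods, the authors used Trim Galore 0.4.3 for trimming, Rsubread for alignment and featureCounts on GENCODE M16 (mm10), keeping unique alignments. The deposited file gives whole-number counts, not normalized, of 53379 genes in 11 libraries. The replicates are pools of mice, and their number limits the precision. The bisulfite samples were not used here. The labels' protocol names right hippocampi and the titles left ones. Left is used here.

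After removal of 105 genes with no symbol, filterByExpr (minimum count 10, minimum total 15) kept 40714. Counts were scaled by TMM and fitted to 4 group means in 1 edgeR 4.0.16 quasi-likelihood model (R 4.3.3, legacy=TRUE), with Benjamini-Hochberg adjustment over all genes tested and FDR below 0.25. SE is the log2 fold change over the root of F. Besides this fit 22 settings were tried, DESeq2 1.42.0 among them, and 2 of the 22 (the block without low-input libraries or without the libraries numbered 1) were chosen after seeing the data. Coordinates, exon lengths and protein-coding status are of GENCODE M21 on the same build (GRCm38).

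Members and lists were chosen with earlier results of these data known. Named in full are the members called in any comparison, their partners and Tnf with its receptors. Such calls are those on all libraries, without or with the block. Of a list, at most 6 called genes are named. A count of 0 is given the limit of 3 counts, and such limits cover counting error only.

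Replicate numbers of kainate and sham were treated as pairing the libraries, since deviations from the group means correlated for every same-numbered pair, at 0.643, 0.161 and 0.491 in neurons and 0.760 and 0.787 in glia. Differently numbered neuron pairs ran from -0.600 to 0.418, with kainate 2 and sham 3 at 0.166 and kainate 3 and sham 2 at 0.418, so numbers 2 and 3 are not set apart from each other by these values. In glia, deviations of only 2 sham libraries mirror each other. Neurons and glia of the same treatment and number come from the same pool of mice. The pool was a block for neurons against glia only, and the test of the difference of the kainate effects did not use it. Libraries were not otherwise split by sequencing instrument, which is not given per library in the sources used here.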

Additional observations from a re-analysis of the deposited data

Results flagged for a closer look

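The kainate effect was called lower in neurons, by the test of the difference with the replicate block, for 3 members. Of all genes, 0.702% were called in that direction. This test treats the fractions of a pool as independent libraries. The effect in neurons minus that in glia was -3.77 ± 0.78 (log2 scale, SE) for Tnf (edgeR FDR = 0.0041), -1.99 ± 0.34 for Tnfrsf12a (FDR = 2.64e-04) and -1.65 ± 0.49 for Tnfsf9 (FDR = 0.123). All 3 had the larger kainate effect in glia. Without the block the values were -3.64, -1.77 and -1.33, and none was called. That of Tnfsf9 was -0.25 without kainate glia 1. With the block, Tnfsf9 was not called without both low-input libraries or without the 4 libraries numbered 1.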

How the results depend on the processing

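The count of members called for kainate depended on the fit. In neurons 64 of 40714 genes were called higher and 3 lower, 292 and 68 with DESeq2, and 324 and 66 of 30259 with a separate fit. The count of members there was 0, and 1 with DESeq2's Wald test or a separate fit per cell type. It was 0 to 1 with 1 library left out, and 1 without sham glia replicate 1 or 3. In glia the count was 1, where 38 of all genes were called higher and 3 lower. With legacy=FALSE it was 2, where 64 and 9 of all genes were called. It was 0 at FDR below 0.05, and 0 with a separate fit, where no gene was called. As given above, the call of Tnfrsf12a was lost without some single libraries. Without 1 sham glia library, or without both low-input libraries, the counts of members and of all genes moved, and they are not given. Where 1 sham glia library is left, it is assumed to vary like the other groups. With the replicate block the counts were 5 in neurons, 6 in glia and 3 (against 0) for the difference of the effects. Of all genes, 3.19%, 2.93% and 1.23% were called higher there, and 1.90%, 2.86% and 0.702% lower. Of the 5 in neurons, Tnfrsf1b and Tnfrsf19 were not called with the block without the 4 libraries numbered 1. In that fit, and with the block without both low-input libraries, the glial comparison rests on 1 pair. Counts of members called in those fits are not given. Neurons against glia gave 15 to 28 calls, against 21, over the 21 settings run for it. Over all genes, calls in that comparison also moved, from 16.8% higher and 20.4% lower without the block to 24.9% and 34.8% with it. Among the members, the block changed no other call than those given in the report. With 1 library left out, the log2 fold change of Tnfrsf19 in glia ran from -1.65 to 0.0042, the latter without sham glia replicate 1. In neurons against glia it ran from -1.03 to 0.26 for Tnfrsf10b, -1.22 to 0.48 for Tnfrsf26, -1.57 to 0.046 for Tnfsf10, -1.46 to 0.52 for Tnfsf14 and -1.77 to 2.62 for Tnfsf4, each highest without sham glia replicate 3. The cause was not tested. Over all settings and named members, 755 values kept direction and side of the threshold, 74 passed it, 31 no longer passed it and 6 changed direction. For low members a difference may not be detectable at this depth.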
